A study of Mus musculus with 12 samples.

Results

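Translation initiation factors are the proteins that load a ribosome onto an mRNA and place it at the start codon. The genes described here are those whose symbol begins with Eif and a digit from 1 to 6, which takes in the factors themselves, the eIF4E-binding proteins (Eif4ebp genes) and the eIF2 kinases (Eif2ak genes). In the muscle RNA, 55 of 20194 rows carried such a symbol, and 54 of them reached a mean of at least 1 FPKM (fragments scaled to transcript length and library size), as did 12981 rows in all. The row left out was Eif4e1b, an eIF4E relative, which stayed at or below 0.086 FPKM in every library. In the chromatin data, 81 of 38244 peaks were annotated to such a gene, and these carried 49 gene names, Eif4e1b among them. Eif3j1 and Eif3j2 were given almost the same interval of chr2 (122028580-122053632 and 122028583-122053631 in mm10) and nearly equal values (67.82 and 67.88 FPKM in PBS 1, for example), so most of their reads are shared and they are not independent; counted once, the rows come to 53.

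Initiation starts when eIF2, bound to GTP and the initiator tRNA, joins the small ribosomal subunit together with eIF1, eIF1A, eIF5 and the large eIF3 scaffold. The cap-binding complex eIF4F, made of eIF4E, eIF4G and the helicase eIF4A, brings this complex to the 5′ end of the mRNA. Cells throttle both steps: 4E-binding proteins sequester eIF4E when the kinase mTORC1 is inactive, and the eIF2 kinases phosphorylate eIF2 under stress so that it blocks its own exchange factor, eIF2B. In skeletal muscle, the rate of protein synthesis set by these steps is one side of the balance that is lost in wasting. Neither assay here reads protein or phosphorylation.

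The study asked how gene regulation changes in muscle in cancer cachexia, a wasting of body tissue in some cancer patients. PolyA RNA of muscle, not named further, was sequenced from C57BL/6 mice that received PBS (3 libraries) or 500000 Lewis lung carcinoma (LLC) cells by subcutaneous injection (3 libraries), with tissue taken on day 22. ATAC-seq uses the Tn5 transposase to find open chromatin, and it was applied to myotubes of C2C12, an established mouse muscle line that the labels give as C3H and myoblast, kept in control medium (3 libraries) or in medium conditioned by Colon-26 (C26) cancer cells for 24 hours (3 libraries). The 2 assays thus differ in tumour, in exposure time and in being animal or culture, and C2C12 is a single clonal line that was fused in culture. The labels do not say whether libraries of a group came from separate mice or cultures, so p-values measure the spread between these libraries, which may be technical.

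RNA libraries held 17.0 to 20.1 M tags and ATAC libraries 10.1 to 18.2 M. Muscle fibre markers summed to between 31837 and 42156 FPKM in all 6 RNA libraries, with none of the 6 markers at 0. Most other marker lists were uneven. All 7 neutrophil markers were found, and their summed FPKM came to 122, 6179 and 11728 over the PBS libraries 1 to 3, then 5858, 10337 and 181 over LLC 1 to 3. The 5 erythroid precursor markers summed to 16.3, 454 and 783 FPKM against 60.7, 243 and 34.0 FPKM. PBS 1 and LLC 3 were thus low in both of these blood-cell lists. The 6 B cell precursor markers summed to 12.2, 94.9 and 145 FPKM against 12.9, 8.60 and 66.6 FPKM. There LLC 3 was the highest LLC library. The 5 osteoblast markers summed to 0.312, 196 and 138 FPKM against 42.3, 22.8 and 0.256 FPKM. Macrophage sums (4 markers) were more even, at 43.6 to 77.1 FPKM against 48.8 to 54.4 FPKM. Endothelial and tendon sums differed by group. The 4 endothelial markers summed to 71.5 to 86.8 FPKM after PBS and 156 to 195 FPKM after LLC. Of these, Pecam1, Cdh5 and Cldn5 were higher in every LLC library. Kdr overlapped, at 9.77 to 12.4 against 8.20 to 10.8 FPKM. The 5 tendon markers summed to 217 to 351 against 15.7 to 167 FPKM. Sums of the 4 keratinocyte markers overlapped between the groups, at 0.452, 4.79 and 78.5 FPKM against 1120, 48.7 and 456 FPKM. In the keratinocyte list Krt1, Krt5 and Krt14 were at 0 in PBS 1. In such bulk samples, more cells of a type and more RNA per cell cannot be told apart. In the ATAC data, tags in peaks made up 27.0% of control library 1, 13.1% and 17.9% of the other controls and 12.0% to 13.5% of the C26 libraries. Of 7 genes listed as myotube markers, 2 had a promoter peak, Des and Myod1. Myog, Ckm, Acta1, Mef2c and Myh3 had none, so most of that list was not seen. Alb, Cd3e, Krt14 and Ptprc, 4 genes that muscle cells should lack, had none either.

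The promoters that the chromatin results turn on are shown first. RefSeq (GRCm38.p6) gave promoter sequence for 43 of the 54 genes. Each line below runs 5′ to 3′ from 150 bases before the start of the gene to base 10 of the transcript. Capitals mark letters that match one of 5 motifs on either strand. The E-box is spelled CACGTG here. The letters CCGGAAG stand for the ETS-type motif. The GC-box is spelled GGGCGG. The other two are named by their own letters, which are CCAAT for the first of them and TATAAA for the other. Eif1, Eif3c, Eif5a and Eif3f are the 4 promoters with an entry that lost most accessibility in C26 medium under median-of-ratios scaling (described below).
Eif1, chr11:100319799-100319958, + strand: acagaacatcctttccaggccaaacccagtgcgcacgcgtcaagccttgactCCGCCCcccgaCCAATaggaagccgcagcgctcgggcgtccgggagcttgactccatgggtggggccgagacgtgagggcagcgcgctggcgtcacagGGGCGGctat
Eif3c, chr7:126566357-126566516, - strand: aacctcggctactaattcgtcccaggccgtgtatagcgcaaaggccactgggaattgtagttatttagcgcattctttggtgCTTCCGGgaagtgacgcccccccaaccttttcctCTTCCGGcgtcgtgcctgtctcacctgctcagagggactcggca
Eif5a, chr11:69921377-69921536, - strand: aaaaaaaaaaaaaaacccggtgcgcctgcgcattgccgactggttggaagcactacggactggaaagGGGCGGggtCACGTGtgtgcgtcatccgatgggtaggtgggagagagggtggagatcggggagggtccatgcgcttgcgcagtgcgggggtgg
Eif3f, chr7:108934265-108934424, + strand: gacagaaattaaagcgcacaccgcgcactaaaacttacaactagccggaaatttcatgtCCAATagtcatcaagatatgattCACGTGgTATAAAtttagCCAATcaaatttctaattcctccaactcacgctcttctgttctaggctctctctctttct
Eif2ak2 and Eif3l stood highest in that comparison when each gene was read at its promoter peak with the most tags, and were not called.
Eif2ak2, chr17:78882563-78882722, - strand: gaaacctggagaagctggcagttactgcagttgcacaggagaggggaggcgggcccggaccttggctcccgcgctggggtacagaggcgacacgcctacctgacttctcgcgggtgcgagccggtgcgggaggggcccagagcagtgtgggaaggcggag
Eif3l, chr15:79075073-79075232, + strand: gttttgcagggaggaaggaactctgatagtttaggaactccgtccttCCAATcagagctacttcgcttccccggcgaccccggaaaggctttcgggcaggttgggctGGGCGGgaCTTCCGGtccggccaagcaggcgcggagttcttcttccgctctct
Eif4e is shown because its start and a peak upstream of it went opposite ways, and Eif2ak1 because its RefSeq start lies far upstream of the transcript counted in the RNA.
Eif4e, chr3:138527118-138527277, + strand: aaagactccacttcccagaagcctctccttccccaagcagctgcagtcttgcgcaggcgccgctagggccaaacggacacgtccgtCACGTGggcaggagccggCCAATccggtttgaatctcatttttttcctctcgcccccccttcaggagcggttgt
Eif2ak1, chr5:143817642-143817801, + strand: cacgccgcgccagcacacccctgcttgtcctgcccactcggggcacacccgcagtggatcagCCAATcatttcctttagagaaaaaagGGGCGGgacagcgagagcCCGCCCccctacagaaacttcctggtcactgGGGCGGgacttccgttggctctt

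Over the 300 bases of each RefSeq entry, 33 of the 43 initiation factor promoters (76.7%) held a GC-box, against 63.1% of the promoters of 10089 genes tested in the RNA and 35.7% of all 32851 promoters. An E-box stood in 10 (23.3%), against 10.4% and 7.15%. The ETS-type motif stood in 14 (32.6%), against 17.95% and 8.86%. CCAAT was found in 13 (30.2%, against 38.6% and 37.4%) and TATAAA in 4 (9.30%, against 7.86% and 13.6%). The cAMP-response motif TGACGTCA was in 0 of 43, against 3.10% and 1.79%. Each motif was counted on its own, and no match in the lines shown shares bases with another. A run of pyrimidines at the start itself, the feature of TOP mRNAs that mTORC1 regulates, was found at Eif3f and Eif2s3x. These were 2 of 43 (4.65%), against 2.41% and 2.51%. Median GC content was 62% against 60.7% in genes tested and 52.7% in all promoters. These matches describe letters and not binding.

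In LLC muscle 0 of the 54 initiation factor genes passed the test (limma on log2(FPKM + 1), Benjamini-Hochberg adjusted p under 0.05 over all 12981 genes), as did 0% of all genes, and edgeR on recovered reads also called 0. At an unadjusted p under 0.05, limma and edgeR each counted 1 member. With 3 libraries a group, a p that misses the threshold does not show that levels were alike. In limma it was Eif4ebp1, 1.85% of the members, where 7.63% of all genes fell under that value. The members were thus no more often below it than genes at large. Levels nevertheless did not overlap between the groups for 12 members. In 11 of them (20.4%) every LLC library was above every PBS library, against a background of 9.5% of all genes, and 1 (1.85%) was below, against 3.94%. With median-of-ratios scaling, which lifts PBS 1 relative to the other libraries, 6 members were above (11.1%, all genes 7.21%) and 4 below (7.41%, all genes 5.18%). The median member differed by 0.06 on the log2 scale, and the median of all genes by 0.01. Without PBS 1 those medians were -0.04 and -0.07, so the sign of the members' median rested on that library.

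**Figure D1:**
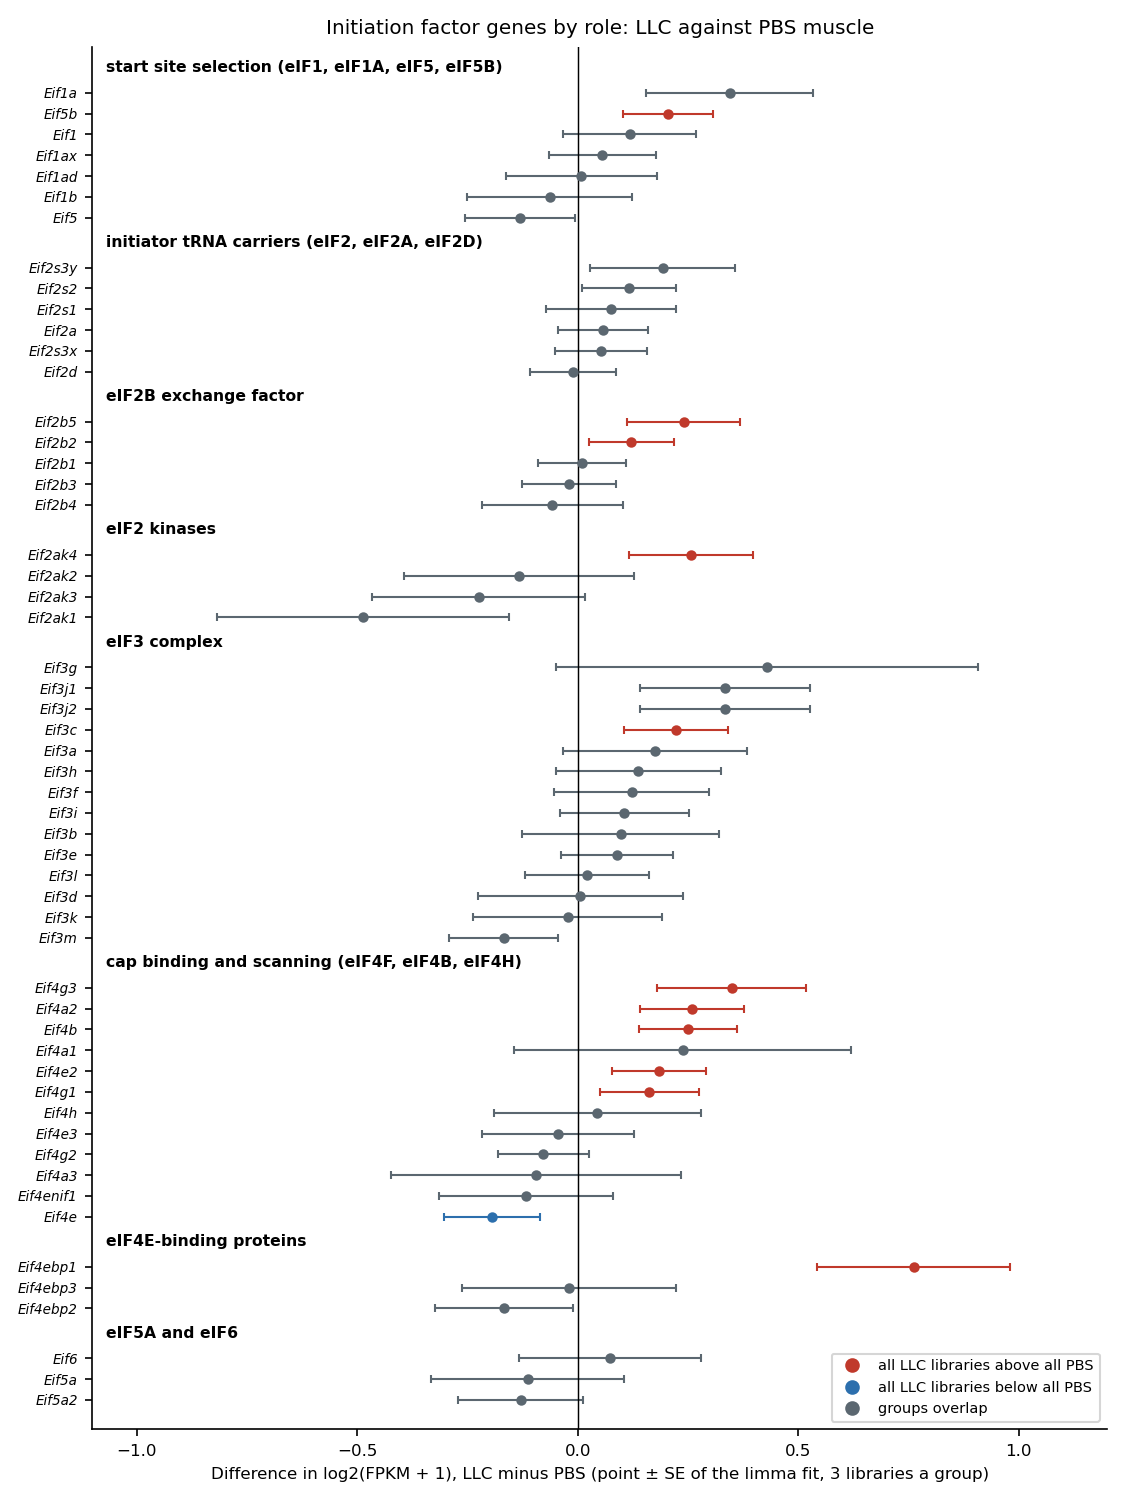
Difference between LLC and PBS muscle for the 54 initiation factor genes, grouped by role; the x axis is the difference in log2(FPKM + 1), bars are the SE of the limma fit (3 libraries a group), red marks genes with every LLC library above every PBS library, blue the reverse and grey overlapping groups. Eif4ebp1 stands farthest to the right at 0.76, and no gene passed the adjusted threshold.

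Eif4ebp1, on chr8, encodes 4E-BP1, the best known of the proteins that hold eIF4E away from eIF4G. After PBS its level was 31.9, 40.4 and 40.9 FPKM (libraries 1 to 3), and after LLC 47.8, 77.5 and 71.6 FPKM. Every LLC library was above every PBS library, with LLC 1 the lowest of its group and PBS 1 the lowest of all. The mean was 37.7 ± 5.09 (SD, n = 3) against 65.6 ± 15.7 FPKM (SD, n = 3), a 1.74-fold ratio and the largest difference among the members. On the log2 scale it was 0.76 with SE 0.22 (limma, unadjusted p 0.0135, adjusted p 0.446), and across the 15 alternatives the adjusted p ran from 0.225 to 0.9998. The 2 relatives did not share this pattern. Eif4ebp2, the form abundant in brain, was at 31.7, 24.9 and 23.8 FPKM and then 23.1, 21.1 and 26.8 FPKM, and Eif4ebp3 was at 3.13, 5.18 and 6.37 FPKM and then 4.46, 5.51 and 4.09 FPKM. Both overlapped between the groups. Of the FPKM summed over the 3 binding-protein genes, Eif4ebp1 made up 54.2 ± 5.59% after PBS and 69.2 ± 5.56% after LLC (SD, n = 3). Of the 4 endothelial markers, Pecam1, Cdh5 and Cldn5 were also higher in every LLC library and Kdr was not, and their part in the Eif4ebp1 difference was not tested.

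Eif4e, which encodes the cap-binding protein itself, was the 1 member with every LLC library below every PBS library. It stood at 25.1, 21.3 and 21.4 FPKM after PBS and at 19.9, 19.7 and 19.1 FPKM after LLC. The log2 difference was -0.19 with SE 0.11 (limma, adjusted p 0.861), a 0.866-fold ratio. Eif4ebp1 per Eif4e, a ratio that does not depend on library scaling, was 1.27, 1.90 and 1.91 after PBS against 2.40, 3.93 and 3.75 after LLC. The groups did not overlap, and the exact two-sided permutation p of 0.1 is the smallest that 3 against 3 libraries can give (0.5 after adjustment over the 5 ratios computed). Eif4ebp2 per Eif4e was 1.18 ± 0.0776 and 1.21 ± 0.171 (SD, n = 3; exact permutation p 0.9). Eif4e2, a cap-binding relative that acts mainly as a repressor, was at 11.7, 13.2 and 13.7 FPKM against 14.3, 14.9 and 15.0 FPKM, without overlap. Eif4e3 was at 23.2, 16.7 and 15.1 FPKM against 17.1, 17.5 and 17.7 FPKM, with PBS 1 above the rest.

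**Figure D2:**
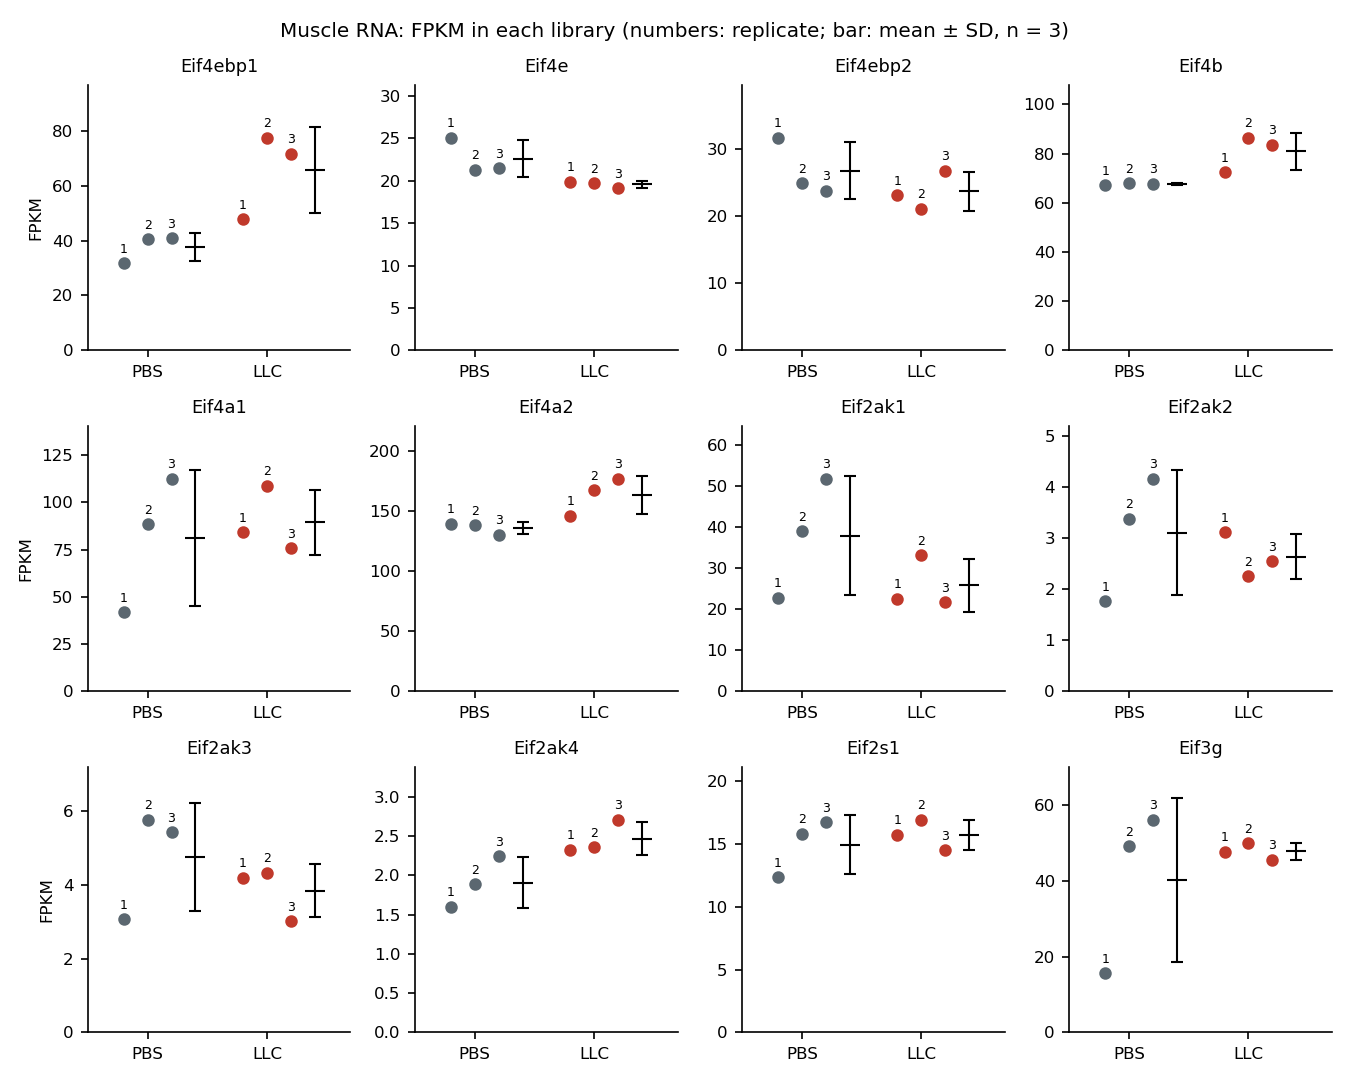
FPKM of 12 initiation factor genes in each muscle library (y axis, linear from 0); points are libraries with their replicate number, grey for PBS and red for LLC, and the bar beside them is the mean ± SD (n = 3). Eif4ebp1, Eif4b, Eif4a2 and Eif2ak4 do not overlap between the groups (Eif4b and Eif4a2 do with median-of-ratios scaling), Eif4e lies lower after LLC, and Eif2ak1, Eif4a1 and Eif3g are spread mainly within the PBS group.

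Among the scaffold and helicase genes of eIF4F, 5 of the 12 cap-binding and scanning genes tested were higher in every LLC library: Eif4b, Eif4a2, Eif4g3, Eif4g1 and Eif4e2. The background is 9.5% of all genes, and none of the 5 passed the test. With median-of-ratios scaling Eif4b, Eif4a2, Eif4g3 and Eif4g1 overlapped between the groups and Eif4e2 did not. Eif4b, which stimulates the helicase, was at 67.1, 67.9 and 67.8 FPKM after PBS, within 1 FPKM of each other, and at 72.5, 86.4 and 83.6 FPKM after LLC (log2 difference 0.25, SE 0.11, limma adjusted p 0.709). Eif4a2 was at 139, 138 and 130 FPKM against 146, 167 and 177 FPKM (0.26, SE 0.12, limma adjusted p 0.72). Eif4g3 was at 24.6, 25.6 and 20.7 FPKM against 25.9, 28.8 and 37.1 FPKM, with LLC 3 highest. Eif4g1 was at 96.0, 94.9 and 87.9 FPKM against 99.97, 98.5 and 114 FPKM.

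The eIF4A helicase genes Eif4a1 and Eif4a2 ordered the libraries differently. Eif4a1 was at 41.9, 88.5 and 112 FPKM after PBS against 84.1, 109 and 75.6 FPKM after LLC. Its lowest and highest libraries both came from the PBS group, and without PBS 1 its log2 difference turned from 0.24 to -0.17. Eif4a1 per Eif4a2 was 0.301, 0.640 and 0.864 against 0.575, 0.651 and 0.427, and the groups overlapped (exact permutation p 1). Eif4a3, a helicase of the exon junction complex, was likewise lowest in PBS 1 (19.1 FPKM) and LLC 3 (24.3 FPKM) and highest in PBS 3 (44.6 FPKM). That order is the one of the neutrophil and erythroid marker sums in the PBS group and of LLC 3 against the other LLC libraries, and their part in these levels was not tested.

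The eIF2 kinases were the role with the widest spread between libraries, closely followed by the eIF4E-binding proteins. The median ratio of the highest to the lowest library was 2.14 for the 4 kinases and 2.03 for the 3 binding proteins. It was 1.49 for all members and 1.75 for all genes tested. They differ in the stress they sense. Eif2ak1 (HRI, which senses low heme) was at 22.9, 39.1 and 51.9 FPKM after PBS and 22.6, 33.2 and 21.8 FPKM after LLC. It had the most negative log2 difference of the members, -0.49 with SE 0.33 (limma adjusted p 0.954), but PBS 1 lay at the level of LLC 1 and LLC 3. Erythroid markers were high in PBS 2, PBS 3 and LLC 2, the same 3 libraries in which Eif2ak1 exceeded 30 FPKM, and their part was not tested. In addition, Eif2ak1 overlaps Aimp2 (mean 83.0 FPKM) on the other strand, and the counting did not use strand, so reads of the pair cannot be told apart where they overlap. The same limit holds for Eif2a (Serp1, mean 37.0 FPKM), Eif4a2 (Rfc4, 9.74), Eif5b (Rev1, 8.15), Eif3j1 and Eif3j2 (Spg11, 3.20) and Eif3m (Ccdc73, 1.22). Eif4enif1 and Eif4g3 overlap genes with means of 0.272 FPKM or less.

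Eif2ak2 (PKR, activated by double-stranded RNA) was at 1.76, 3.38 and 4.16 FPKM and then 3.11, 2.25 and 2.54 FPKM. Eif2ak3 (PERK, which senses unfolded protein in the endoplasmic reticulum) was at 3.07, 5.77 and 5.42 FPKM and then 4.19, 4.33 and 3.01 FPKM. The groups overlapped for both. Eif2ak4 (GCN2, which senses uncharged tRNA when amino acids are short) was the exception among the kinases. It was at 1.60, 1.89 and 2.24 FPKM after PBS and 2.33, 2.36 and 2.71 FPKM after LLC, a 1.29-fold ratio without overlap (log2 difference 0.26, SE 0.14, limma adjusted p 0.843). That is 1 of 4 kinases (25%), where 9.5% of all genes were higher in every LLC library. By level, Eif2ak1 stood well above the other kinases, at a mean of 31.9 FPKM, and Eif2ak3, Eif2ak2 and Eif2ak4 followed at 4.30, 2.87 and 2.19 FPKM. The range of Eif2ak2 overlaps those of Eif2ak3 and Eif2ak4, and every Eif2ak3 library was above every Eif2ak4 library.

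The substrate and exchange factor of those kinases varied far less. Eif2s1, the eIF2 subunit that is phosphorylated, was at 12.3, 15.8 and 16.7 FPKM against 15.7, 16.9 and 14.5 FPKM. Eif2ak3 per Eif2s1 was 0.313 ± 0.0590 and 0.243 ± 0.0311 (SD, n = 3; exact permutation p 0.3). The 6 initiator tRNA carrier genes had a median highest-to-lowest ratio of 1.18. In 0 of them did the groups separate, where 9.5% of all genes were higher and 3.94% lower. The gamma subunit of eIF2 is encoded on both sex chromosomes in the mouse. Eif2s3y was detected in every library, at 28.5, 21.8 and 26.4 FPKM after PBS and 24.3, 31.5 and 32.4 FPKM after LLC, and Eif2s3x stayed between 13.0 and 14.7 FPKM. The Y copy exceeded the X copy by 1.68 to 2.25 times in all 6 libraries, although reads of so similar a pair may fall on either copy. Of the 5 eIF2B genes, Eif2b5 (the catalytic epsilon subunit) was at 17.98, 22.0 and 22.7 FPKM against 23.5, 26.2 and 24.6 FPKM, and Eif2b2 was also without overlap, at 20.7 to 22.3 and 22.3 to 24.1 FPKM, but overlapped with median-of-ratios scaling. Eif2b1, Eif2b3 and Eif2b4 overlapped. Thus 2 of the 5 (40%) were higher in every LLC library, where 9.5% of all genes were.

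The eIF3 subunits, which form the scaffold on the small ribosomal subunit, had a positive log2 difference in 12 of 14 rows (11 of 13 with Eif3j1 and Eif3j2 counted once), where 53.0% of all genes did, with a median of 0.11, and 0 passed. Of the 14 rows, 10 were lowest in PBS 1, as were 28 of the 54 members (51.9%) and 49.6% of all genes tested. Eif3g was the extreme, at 15.6, 49.1 and 56.1 FPKM after PBS and 47.7, 50.0 and 45.6 FPKM after LLC, a highest-to-lowest ratio of 3.61 that is the largest among the members and is set by PBS 1 alone. Eif3c, a core subunit, was the 1 of the 14 without overlap, at 46.2, 56.2 and 53.1 FPKM against 57.2, 63.5 and 60.8 FPKM. That is 7.14% of the rows, where 9.5% of all genes were higher in every LLC library. The row shared by Eif3j1 and Eif3j2 was not low in PBS 1, at 67.8, 50.6 and 44.3 FPKM against 58.9, 69.8 and 75.0 FPKM for Eif3j1. Its groups overlapped through PBS 1 alone. Without PBS 1 the log2 difference of Eif3j1 went from 0.33 to 0.50 (limma adjusted p 0.194).

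**Figure D3:**
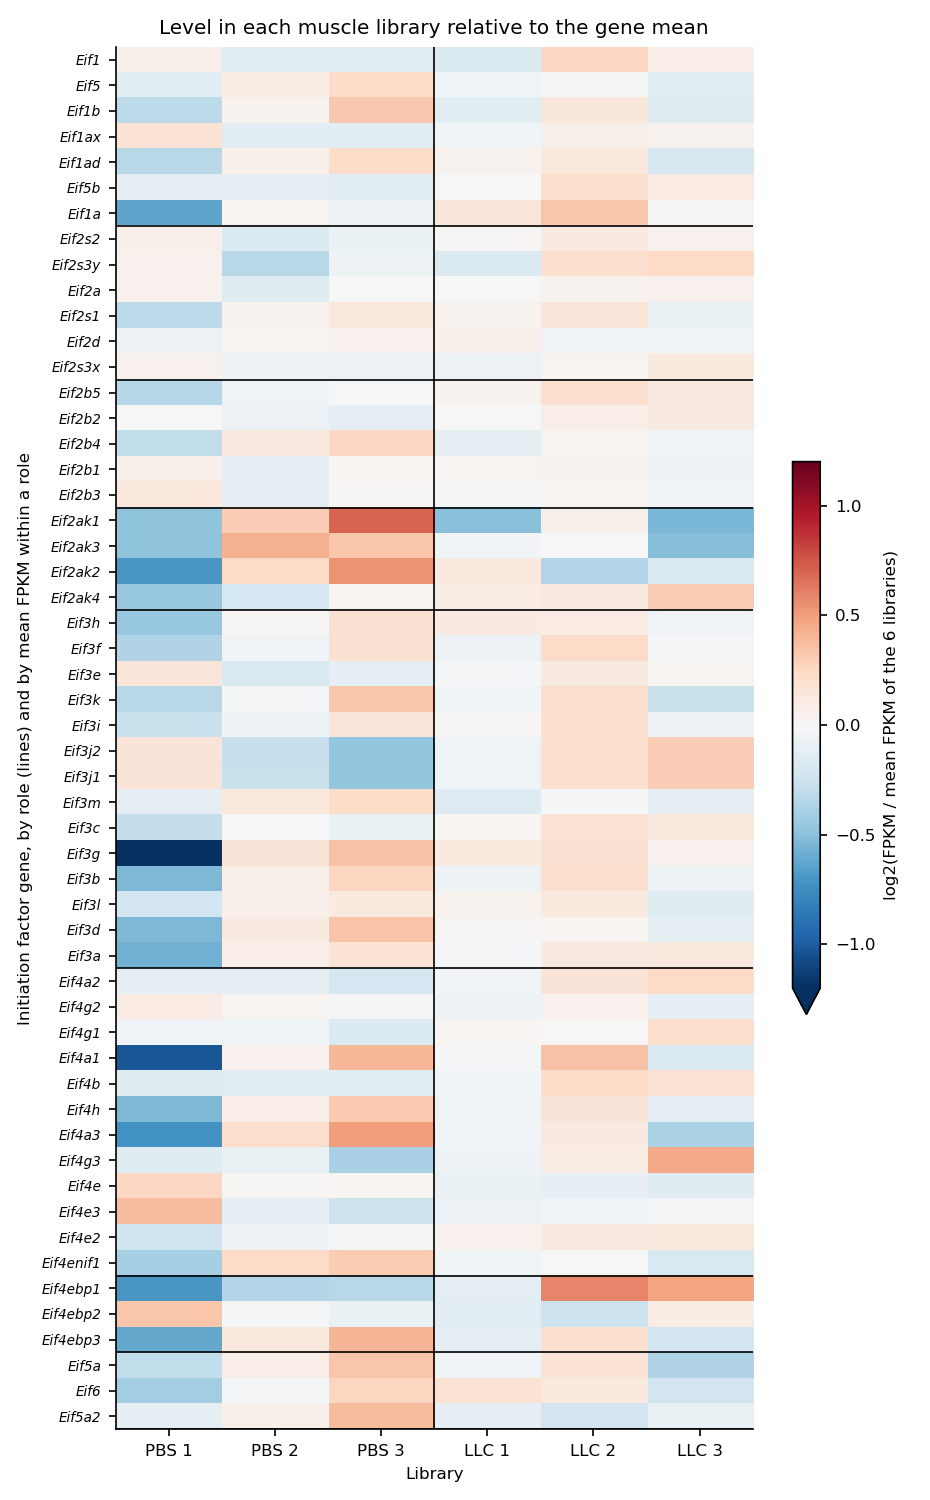
Level of each of the 54 initiation factor genes in each muscle library, as log2 of its FPKM over its mean in the 6 libraries (colour scale; blue below and red above the mean; the arrow marks Eif3g in PBS 1, beyond the scale), with rows grouped by role. The PBS 1 column is the bluest, and 28 of the 54 genes were lowest there (51.9%, all genes tested 49.6%). PBS 3 was the highest library for 22 of the 54, and for 4559 of all 12981 genes tested.

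Of the 7 start-site selection genes 0 passed the test, and their mean levels ran from 9.23 to 378 FPKM. Eif1, which guards against wrong start codons, had the highest mean of all members. Eif5a, which has another role and is needed at stretches that ribosomes read slowly, followed it at 295 FPKM. Eif5b, the GTPase that joins the large ribosomal subunit, was at 9.40, 9.44 and 9.31 FPKM after PBS and 10.2, 11.8 and 10.9 FPKM after LLC (log2 difference 0.21, SE 0.10, limma adjusted p 0.779). The 3 PBS libraries were nearly level and all LLC libraries were above them, though the groups overlapped with median-of-ratios scaling. Eif1a was at 5.97, 9.40 and 8.84 FPKM against 10.2, 11.7 and 9.30 FPKM, with LLC 3 just under PBS 2. Eif5a was at 240, 311 and 371 FPKM against 288, 330 and 229 FPKM, and Eif6, which keeps ribosomal subunits apart, at 18.9 to 30.1 FPKM against 21.5 to 28.3 FPKM. Both overlapped. Eif5a2 had the lowest mean of the members, 1.01 FPKM.

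Among 50 other genes of the pathway, 0 passed the test (limma; 2, Ddit4 and Chac1, at an unadjusted p under 0.05, 4% where all genes had 7.63%). In 7 (14%) every LLC library was above every PBS library, where 9.5% of all genes were, and in 0 below, where 3.94% were. Ddit4 encodes REDD1, an inhibitor of mTORC1 and so an upstream input to the binding proteins. It was at 5.27, 7.68 and 9.62 FPKM after PBS and 12.1, 17.9 and 21.2 FPKM after LLC (log2 difference 1.08, SE 0.28, limma adjusted p 0.41). The ATF4 response, which eIF2 phosphorylation is known to induce, was read over 6 genes, Atf4 itself and targets of it. Chac1 was at 37.7, 21.1 and 36.0 FPKM against 57.3, 90.9 and 101 FPKM (limma adjusted p 0.324). Trib3 was at 1.001 to 1.19 FPKM against 1.27 to 1.78 FPKM. The other 4, Atf4, Asns, Psat1 and Ddit3, overlapped between the groups. Mknk2, a kinase of eIF4E, was at 71.8, 77.0 and 79.8 FPKM against 81.0, 106 and 106 FPKM, and the elongation factor gene Eef2 at 343, 447 and 478 FPKM against 494, 591 and 539 FPKM. Dohh, which completes the hypusine on eIF5A, and Rheb, the activator of mTORC1, were the remaining 2 of the 7. Dohh was at 18.3 to 24.3 FPKM against 24.8 to 26.02 FPKM. Other genes with the smaller p of their lists overlapped: Ddit4l, a relative of Ddit4, was at 61.9 to 110 FPKM against 97.0 to 135 FPKM, Pabpc1, the poly(A)-binding protein, at 52.0 to 213 against 74.4 to 119 FPKM, and the eIF2 phosphatase subunit genes Ppp1r15a and Ppp1ca at 9.45 to 52.9 against 13.2 to 28.6 FPKM and 135 to 186 against 117 to 170 FPKM. Mcts1, of ribosome recycling, was at 20.47 to 23.2 against 19.2 to 21.1 FPKM and Etf1, the release factor, at 31.3 to 37.3 against 36.2 to 41.4 FPKM.

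In the myotubes, the chromatin at initiation factor genes was read over 81 peaks, all of which passed the filter (mean of at least 5 tags per 10 M, 37358 peaks in all). Of the 54 genes, 48 had a peak of their own name and 47 of those had one within 1000 bp of the annotated start. The starts given for Eif3j1 and Eif3j2 in the RNA both lie in the peak named Eif3j2. Among RefSeq genes, Eif3j1 alone overlaps that peak. The start of Eif3i lay in a peak named Tmem234 and that of Eif2s1 in one named Atp6v1d, while Eif2d and Eif4ebp3 had their nearest peaks 14168 and 5861 bp away. Eif2s3y, on chromosome Y, had none.

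On the authors' scaling, to total tags, 1 of the 81 peaks was higher in C26 medium and 3 were lower (limma, adjusted p under 0.05 over all peaks), where the background was 1.15% higher and 1.88% lower. On that scale the median of all peaks was -0.54, and -0.26 without control library 1, the library with the largest share of its tags in peaks. Median-of-ratios scaling brings that median to -0.02, and is therefore used beside it. It called 7 of the 81 higher (8.64%, all peaks 17%) and 22 lower (27.2%, all peaks 12.7%). The higher share of all calls was 37.8% on the authors' scaling and 57.3% on the other. Under median-of-ratios scaling the members' calls thus leaned to loss and those of peaks at large to gain, while on the authors' scaling both leaned to loss. The calls also differed by position relative to the start.

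At the starts of the genes, losses alone were called, and their number depended on the scaling. On the authors' scaling 2 of 51 member promoter peaks were lower (limma, 3.92%), where 0.965% of all promoter peaks were. On that scaling 0 were higher, where 0.0464% of all promoter peaks were. Of 51 member promoter peaks at 47 gene names, 17 were lower under median-of-ratios scaling (33.3%) where 21.2% of all 10777 promoter peaks were, and 0 were higher (limma; 0 also at an unadjusted p under 0.05 and by edgeR) where 2.51% of all were. Their median difference was -0.25, against -0.16 for all promoter peaks. Beyond 1000 bp, 7 of 30 member peaks were higher (23.3%) and 5 lower (16.7%), where the background was 22.9% and 9.27%. The share of gains there was near the background. Without control library 1, median-of-ratios scaling called 11 promoter peaks lower and 0 higher. Of all 37358 peaks, in and beyond promoters, that setting called 3858 lower and 5617 higher.

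**Figure D4:**
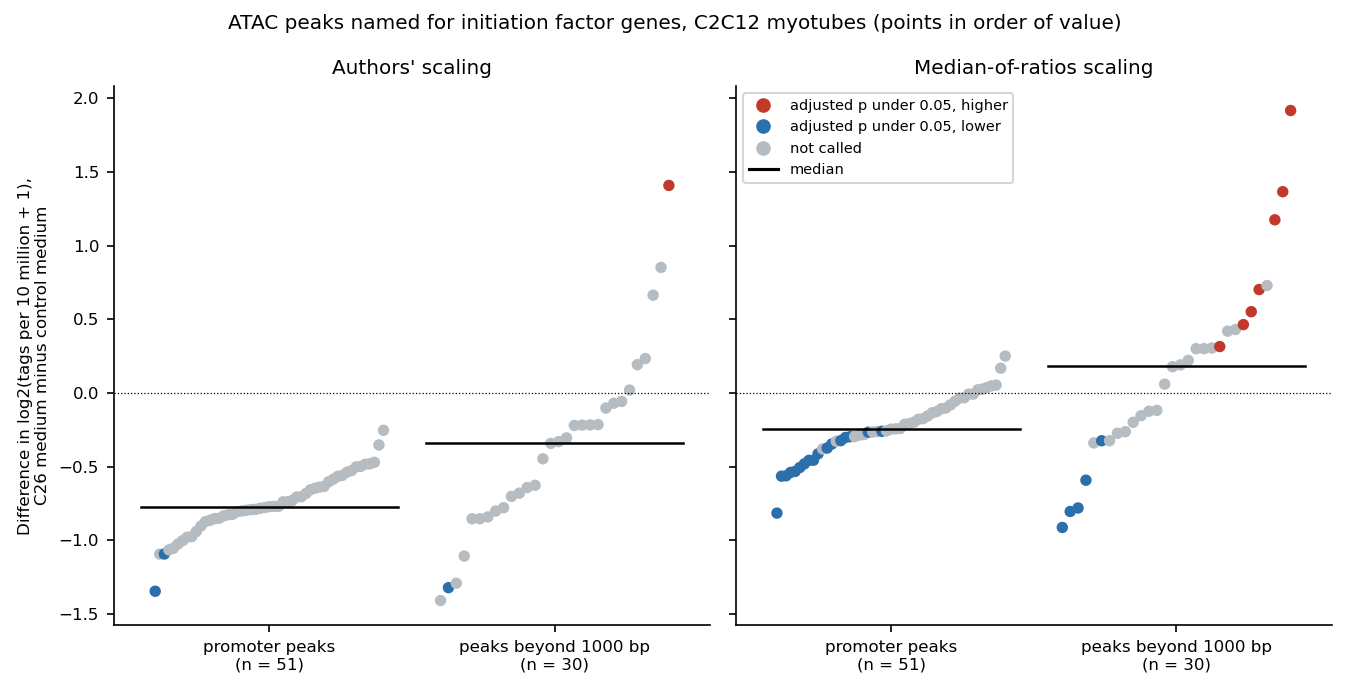
Difference in log2(tags per 10 M + 1) between C26 and control medium for the 81 peaks at initiation factor genes (points, in order of value), split into 51 promoter peaks and 30 peaks beyond 1000 bp, on the authors' scaling (left) and with median-of-ratios scaling (right). Black lines are medians; among promoter peaks losses alone are coloured (2 on the left, 17 on the right), and the 7 gains on the right all lie beyond 1000 bp.

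Eif1 had the promoter with the largest loss. Its peak, in exon 1 and across the start (chr11:100319643-100320642, mm10), held 258, 107 and 164 tags per 10 M in control 1 to 3 and 64.8, 54.8 and 75.5 in C26 1 to 3. After median-of-ratios scaling these were 143, 126 and 141 against 77.0, 69.8 and 84.7, a wide gap between tight groups. The log2 difference was -1.35 (SE 0.34, limma adjusted p 0.00814) on the authors' scaling and -0.82 (SE 0.10, adjusted p 2.5e-09) on the other. The Eif5a promoter (chr11:69921100-69922053) held 248, 118 and 160 tags per 10 M against 70.2, 77.4 and 86.8, with log2 differences of -1.09 (limma adjusted p 0.0434) and -0.56 (4.13e-06). After scaling the controls lay at 137, 138 and 138 and the C26 libraries at 83.5 to 98.6. These were also the 2 most abundant members of the muscle RNA, where neither passed the test between LLC and PBS. On the authors' scaling, leaving out control 3 or any 1 C26 library raised the adjusted p of both to between 0.136 and 0.428, and leaving out control 1 or 2 did not. With no filter on low peaks it was 0.0587 for Eif1 and 0.107 for Eif5a, and with a mean of at least 20 it was 0.0576 for Eif5a.

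By role, the 17 promoter losses under median-of-ratios scaling, Eif1 and Eif5a included, were 5 of 12 eIF3 peaks, 6 of 14 cap-binding and scanning peaks, 2 of 5 eIF2B peaks, 2 of 7 start-selection peaks, 1 of 3 initiator tRNA carrier peaks and 1 of 4 eIF5A and eIF6 peaks, beside 21.2% of all promoter peaks. With so few peaks in a role, these counts set no role apart. Eif3c was at 173, 83.0 and 108 tags per 10 M against 51.9, 49.6 and 60.4 (log2 difference -0.57, limma adjusted p 1.82e-05), and Eif3f at 109, 48.6 and 83.5 against 34.0, 38.2 and 35.7 (-0.54, adjusted p 0.000687). Eif4a1 had a called loss at +983 bp (-0.53, limma adjusted p 0.00583), and its peak at the start itself was not called (-0.21, adjusted p 0.0944). The Eif4a2 promoter was at 121, 52.3 and 88.0 tags per 10 M against 42.9, 38.5 and 46.2 (-0.41), and the Eif2s3x promoter at 166, 80.7 and 120 against 70.6, 53.5 and 63.5 (-0.37). The rest of those called ran from -0.51 to -0.26 and were at Eif3e, Eif4g3, Eif2b5, Eif3k, Eif4h, Eif2b2, Eif5, Eif4b, Eif3j2 and Eif4e. The peak named Eif3j2 lies over the start of Eif3j1.

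The promoters of the eIF2 kinases and of the eIF4E-binding proteins were not among those called, on either scaling. These were 3 peaks for the kinases (Eif2ak2, Eif2ak3 and Eif2ak4) and 3 for the binding proteins (Eif4ebp1 and Eif4ebp2). Of all promoter peaks 21.2% were lower under median-of-ratios scaling, so 0 of 3 sets neither role apart. Eif2ak2, Eif2ak3 and Eif2ak4 had log2 differences of 0.17, -0.10 and 0.05 under median-of-ratios scaling (limma adjusted p 0.47, 0.395 and 0.752). Eif2ak4 held 148, 72.9 and 100.4 tags per 10 M against 77.3, 69.1 and 73.9, which became 82.1, 85.5 and 86.2 against 91.9, 88.0 and 82.9 after scaling. At Eif2ak1 the transcript used for the RNA starts at 143871862 on chr5, with no peak there, and a peak named for it at -54245 bp (chr5:143817160-143818074) covers the RefSeq start shown above. It held 120, 56.0 and 88.0 tags per 10 M against 44.5, 49.6 and 49.2 (-0.27 under median-of-ratios scaling, limma adjusted p 0.0591).

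Eif4ebp1, whose RNA differed most in muscle, had 3 peaks. Those at -83 and +947 bp were not called on either scaling (-0.03 and -0.13 under median-of-ratios scaling). A small peak in intron 1 at +2317 bp (chr8:27262528-27262760) held 55.0, 27.0 and 27.7 tags per 10 M against 14.8, 9.72 and 17.0. It was lower by -1.29 on the authors' scaling (limma adjusted p 0.0527, not called) and by -0.78 on the other (adjusted p 0.00287). The Eif4ebp2 promoter, at -245 bp, was not called (-0.30, limma adjusted p 0.0711).

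**Figure D5:**
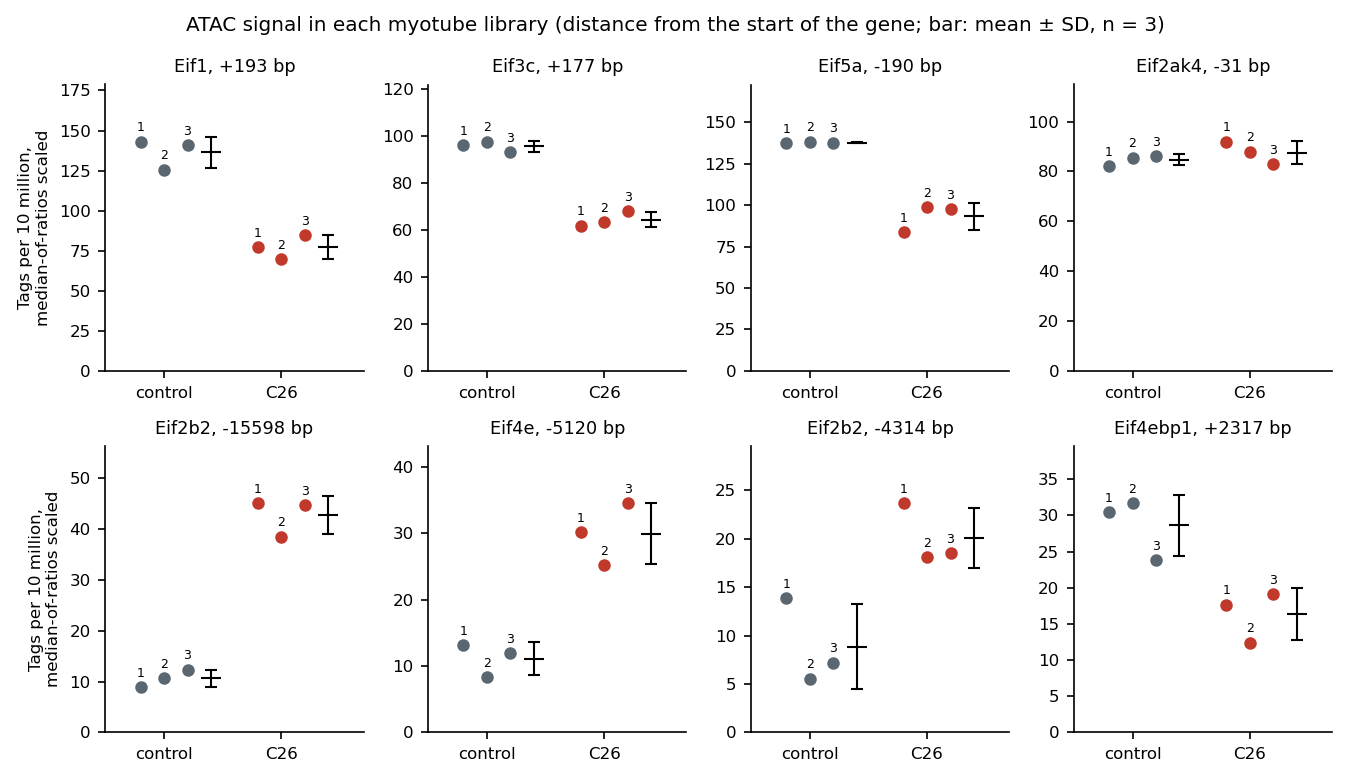
ATAC signal of 8 peaks at initiation factor genes in each myotube library, as tags per 10 M after median-of-ratios scaling (y axis, linear from 0), with the distance from the start of the gene in each title; points are libraries with their replicate number and bars the mean ± SD (n = 3). The promoters of Eif1, Eif5a and Eif3c lie lower in C26 medium, Eif2ak4 overlaps, and the upstream peaks of Eif2b2 and Eif4e lie higher.

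The gains were concentrated at 3 names, Eif2b2 (4 peaks), Eif3h (2) and Eif4e (1). The largest lay 15598 bp upstream of Eif2b2, between Pgf and Eif2b2 (chr12:85203699-85204067). It held 16.1, 9.11 and 14.3 tags per 10 M in control medium and 37.9, 30.2 and 39.8 in C26 medium, and the authors' peak lists named it in 0 of 3 control and 3 of 3 C26 libraries. The log2 difference was 1.41 (SE 0.41, limma adjusted p 0.0291) on the authors' scaling and 1.92 (SE 0.20, adjusted p 8.41e-11) on the other, where the 2 groups were 8.90, 10.7 and 12.3 against 45.01, 38.5 and 44.7. This was the 1 member peak called higher on both scalings. On the authors' scaling its adjusted p was 0.235 to 0.391 without control 3 or any 1 C26 library, and 0.104 with no filter. A wider neighbour at -17569 bp (174, 93.5 and 123 against 135, 116 and 134 tags per 10 M, 0.55), a small peak at -4314 bp (25.02, 4.73 and 8.40 against 19.9, 14.2 and 16.5, 1.17) and one at +8291 bp, between Eif2b2 and Mlh3 (0.46), were higher under median-of-ratios scaling alone. The Eif2b2 start itself, in the same stretch, was lower under that scaling (-0.32, limma adjusted p 0.0266). These 5 peaks share a locus and are not independent.

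At Eif4e, a peak 5120 bp upstream of the start (chr3:138520899-138521243) held 23.7, 7.09 and 13.8 tags per 10 M against 25.4, 19.8 and 30.8. It was called under median-of-ratios scaling (1.37, limma adjusted p 4.29e-06) and not on the authors' (0.85, adjusted p 0.158), and was in 1 of 3 control and 3 of 3 C26 peak lists. The Eif4e peak at -423 bp (chr3:138526210-138527480) was lower under median-of-ratios scaling (-0.26, limma adjusted p 0.0252). Its distance is counted from the RefSeq start shown above. That start lies 1077 bp downstream of the transcript start from which the upstream peak is counted. The 2 Eif3h gains were smaller, 0.70 at +11742 bp in intron 1 and 0.31 at +134332 bp, between Trps1 and Eif3h. Among the losses beyond 1000 bp, a peak 43001 bp downstream of the Eif2s3x start (chrX:94169344-94169957, between Zfx and Eif2s3x) was called on both scalings (-1.32, limma adjusted p 0.0353, and -0.81, adjusted p 0.000505). It held 81.3, 35.1 and 36.6 tags per 10 M against 21.1, 12.2 and 23.6. Without control 3 or any 1 C26 library its adjusted p on the authors' scaling was 0.216 to 0.495, and with no filter 0.128. The other distal losses were called under median-of-ratios scaling alone: Eif5a2 at -35070 bp (30.8, 13.2 and 20.3 tags per 10 M against 7.41, 7.64 and 6.04), Eif4g1 at +5362 bp (52.3, 26.3 and 36.1 against 19.1, 14.6 and 16.2) and Eif2s3x at +34723 bp (-0.32), beside the Eif4ebp1 peak above. HOMER names each peak for the nearest start, so the gene on which a distant peak acts, if any, was not tested.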

How the data were processed

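PolyA RNA of muscle (3 PBS and 3 LLC libraries) and open chromatin of C2C12 myotubes (3 control and 3 C26 libraries) were used as deposited, grouped by their titles. The RNA values are FPKM that the authors made with HOMER from exons of RefSeq genes in mm10, without regard to strand and condensed to 1 transcript a gene, per the file headers. The ATAC values are signal that the authors deposited as tags per merged peak scaled to 10 M tags per library, annotated with HOMER, per the file headers. The submitters' processing notes also list HISAT2, Bowtie2, MACS2 and DESeq2 with GRCm38 and mm10; the sources used here give no versions, no handling of multi-mapping reads and no peak threshold. Values fell on whole read steps in 100% of those checked (tolerance 0.1), and the recovered reads, 25.7 to 32.5 M read ends in genes and 3.33 to 6.05 M in peaks, served edgeR as an alternative.

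log2(value + 1) was fitted with limma 3.58.1 (trend, two-sided) in R 4.3.3 over every gene averaging 1 FPKM or more and every peak averaging 5 or more, p being adjusted after Benjamini and Hochberg and called under 0.05. This scale understates folds of low genes. SD is that of the libraries and SE that of the limma difference. Ratios were tested by exact permutation. The pipeline was tested on simulated data. The members, role lists, pathway lists and markers were chosen with earlier results of these data known. Library values or ranges were given for the 12 members with the smallest p and a list of regulators, for the 12 called peaks with the smallest p under median-of-ratios scaling and for the 2 genes of smallest p in each pathway list; Eif3g, Eif4a3 and Eif2b2 values, and other peaks, were added after values were seen. RNA columns headed C were read as the libraries titled CC with the same number. Alternatives were pseudocounts, filters, TPM, median-of-ratios scaling, edgeR 4.0.16, the replicate block and each library left out. A member promoter is the RefSeq entry nearest the start that its peak was measured from; for other genes the first entry was taken.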

Additional observations from a re-analysis of the deposited data

How the results depend on the processing

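The count of 0 initiation factor genes past the threshold in muscle stayed 0 under all 15 alternatives run, edgeR, TPM and each left-out library included; leaving out PBS 1 raised those with an unadjusted p under 0.05 from 1 to 7. Of 37 named RNA genes, 29 kept their direction in every alternative. With 1 library left out, the log2 difference of Eif4ebp1 per Eif4e stayed at 0.79 to 1.21, and the other 4 ratios moved by less than 1 SD of the libraries, Eif4a1 per Eif4a2 (-0.45 to 0.31) and Eif4ebp2 per Eif4e (-0.080 to 0.11) changing sign. For the peaks the scaling and the libraries mattered most. The count of member peaks higher (1) was 0 with no filter, 7 with median-of-ratios scaling, 8 with edgeR, 7 with that scaling and the replicate block, 5 with that scaling without control 1, and 0 to 3 with 1 library left out. The count lower (3) was 0, 22, 23, 22 and 16 in the same order, 10 at an adjusted p under 0.1, and 0 to 57 with 1 library left out, the 57 without control 2 and 11 without control 1. Among all 37358 peaks, 704 were lower in the main fit, 19854 without control 2 and 2617 without control 1. Median-of-ratios scaling called 4753 of them lower and 6368 higher, and without control 1 it called 3858 and 5617. By edgeR, 4787 were lower and 6579 higher (of 37410), and with no filter 212 and 283 (of 38244). Promoter peaks lower (2) were 0, 17, 18, 17 and 11 in the same order, 1 at a mean of at least 20, and 0 to 45 with 1 library left out. The cause was not tested, beyond the shift that each scaling makes by construction.

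Same-numbered libraries did not deviate together (correlation of deviations -0.09, 0.60 and -0.60 in the RNA, -0.02, 0.01 and -0.02 in the ATAC), so numbers were not taken as pairs; with the replicate block 0 genes, 1 higher and 3 lower peaks were called.

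Directions that turned, with the range over single left-out libraries, were these. Eif4ebp3 was 0.033 with TPM and -0.26 to 0.16 in that range, and Eif4e3 was 0.0031 with TPM and -0.17 to 0.13. The ranges of Eif2ak2 (-0.39 to 0.057), Eif2s1 (-0.048 to 0.16), Eif4a1 (-0.17 to 0.53), Eif5a (-0.28 to 0.033), Eif6 (-0.10 to 0.22) and Pabpc1 (-0.93 to 0.074) also crossed 0. Without both PBS 1 and LLC 3, Eif4a1 was -0.060 and Eif4e3 0.12. Among peaks, Eif3h at 134332 bp was 0.31 with median-of-ratios scaling and with its block, 0.32 with edgeR, 0.28 with that scaling without control 1 and -0.43 to 0.034 in the range. Eif3h at 11742 bp was -0.012 to 0.57, and Eif2b2 at -17569 bp -0.19 to 0.25. Eif2b2 at 8291 bp was 0.46 with median-of-ratios scaling and with its block, 0.50 with edgeR, 0.30 with that scaling without control 1 and -0.30 to 0.069 in the range. The Eif2ak2 promoter was 0.17 with median-of-ratios scaling, with its block and with edgeR and 0.18 with that scaling without control 1; the Eif2ak4 promoter was 0.048, 0.048, 0.052 and 0.025 in the same order, and the Eif4e3 promoter 0.016 with edgeR. With 3 libraries a group, changes within this spread were not detectable.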
